A study of Dermatophagoides pteronyssinus with 3 samples.

Results

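The short contigs of high coverage described here are sequences of at most 300 bases, rebuilt from overlapping reads, on which reads lay at a mean coverage of at least 1000 per base. They numbered 877 of 47844 listed contigs: 206 of 29244, 239 of 9996 and 432 of 8604 in bands 1, 2 and 3. Length and coverage chose them, so the sizes, coverages and shares below describe the choice and are not tested. The bands were cut from a gel of Trizol-extracted total RNA of Dermatophagoides pteronyssinus, a dust mite whose proteins are major indoor allergens, grown in a standard commercial culture with no treatment. Band 1 was RNA above 500 bp, band 2 was taken at about 300 bp, and band 3 at 50 to 150 bp. Each band gave 1 library, with 99600344, 60134651 and 38218991 reads on listed contigs in bands 1, 2 and 3, made with a ribosomal RNA depletion kit for human, mouse and rat RNA. How many mites the RNA came from is not stated in the labels. Since no band was sequenced a second time, no difference between bands was tested, and every difference given compares single libraries with no replicate check.

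As background, most RNA of an animal cell is ribosomal, and many of its RNA molecules are short. Short RNAs include transfer RNA, the small ribosomal RNAs, the small nuclear RNAs of splicing and the RNA of the signal recognition particle. An assembler such as Trinity cuts reads into short words and joins words that overlap. A short contig can therefore be a whole short RNA or a stretch of a longer one whose joins were not resolved. Trinity names record this joining. A component is a set of contigs built from connected sequence, a gene is a subset of a component, and isoforms are the contigs of a gene. The tables analysed here give names, lengths and read values but no sequences or gene names, so the RNA class of a contig was not analysed here, and no sequence is shown. A contig of one band cannot be matched to a contig of another by name.

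The short contigs of high coverage were few and small but carried much of the sequencing. They made up 0.704%, 2.39% and 5.02% of the number of contigs and summed to 41019, 47333 and 81258 bases. Those bases were 0.410%, 1.80% and 4.01% of the assembled bases of the bands. On them lay 22.2%, 35.1% and 34.2% of the reads in bands 1, 2 and 3, that is 22141119, 21132160 and 13082229 reads. The exact (Clopper-Pearson) 95% interval of each share of all reads of a library extends at most 0.00917, 0.0122 and 0.0159 percentage points to either side in bands 1, 2 and 3. It covers counting error only, because without molecular identifiers several reads may stem from the same molecule. By reads, bands 2 and 3 were thus 0.912 points apart, and band 1 was 12.0 points below band 3.

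Summed coverage, the total of the mean coverages of all contigs, gives each contig the weight of its depth and not of its length. By that measure the same contigs held 57.8%, 59.2% and 67.5% in bands 1, 2 and 3. Bands 1 and 2 were 1.40 points apart here, against 12.9 points by reads, and band 3 was highest. A given number of reads yields a higher coverage on a shorter contig, so the coverage minimum itself favours short contigs. Nearly all reads on contigs of at most 300 bases belonged to these few: 98.9%, 99.2% and 97.2% in bands 1, 2 and 3. The other short contigs numbered 19449, 7700 and 6903, had median coverages of 2.59, 2.54 and 2.64, and had between them 0.256%, 0.296% and 0.973% of all reads.

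**Figure D1:**
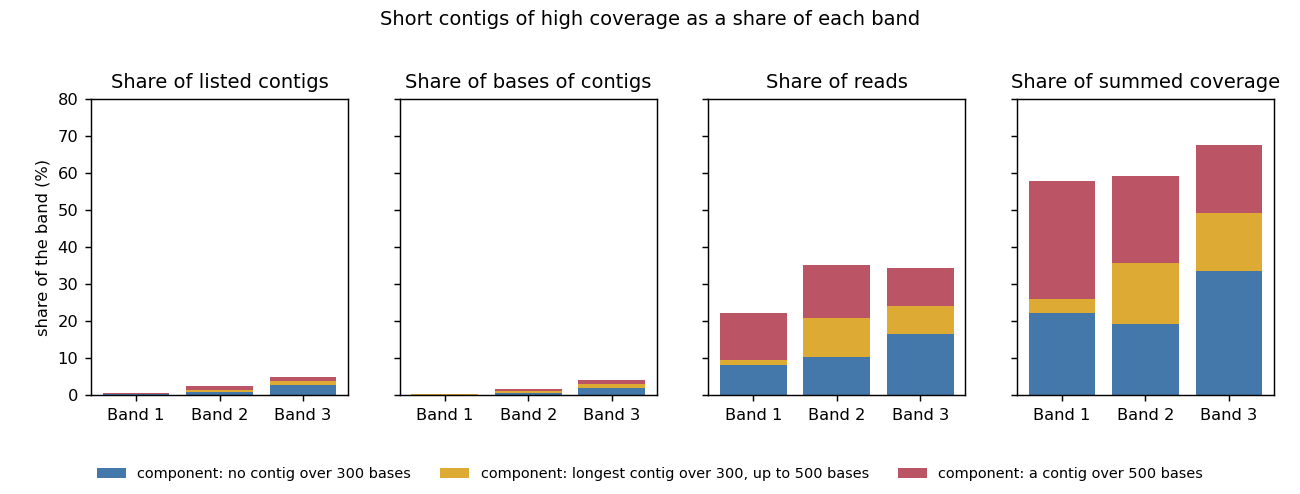
Share of each band (%, bars from 0) held by the short contigs of high coverage, counted by listed contigs, by bases, by reads and by summed coverage; colours split the bars by the longest contig of the Trinity component. The bars reach at most 5.02% of contigs and 4.01% of bases, but 22.2% to 35.1% of reads and 57.8% to 67.5% of summed coverage.

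Of all contigs with a coverage of at least 1000, the short ones were 57.4% in band 1 (206 of 359), 61.8% in band 2 (239 of 387) and 74.7% in band 3 (432 of 578). Contigs of over 300 and up to 500 bases at that coverage numbered 55, 82 and 74, and contigs over 500 bases 98, 66 and 72. The longer ones held more reads for their number: those over 500 bases had 67.9%, 36.9% and 49.1% of the reads in bands 1, 2 and 3. Among the 10 contigs of highest coverage, 6, 5 and 8 in bands 1, 2 and 3 were short. Among the 10 with most reads, none was short in band 1 and 1 was in each of bands 2 and 3.

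Coverage varied widely among the short contigs. In band 1 it ran from 1014 to 997817 with a median of 7293, in band 2 from 1000.2 to 842666 with a median of 10440.2, and in band 3 from 1015 to 477793 with a median of 5439. The middle 50% of the contigs lay between 2618 and 43193 in band 1, between 3585 and 41961 in band 2 and between 2238 and 13831 in band 3. By unscaled coverage, band 3 thus had the most short contigs but the fewest at the top of the range. A coverage of at least 100000 was reached by 31 of 206, 28 of 239 and 9 of 432 in bands 1, 2 and 3. That cut was strictest in band 3, which had the fewest reads.

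Coverage is not scaled by library size, and band 3 had the fewest reads. A coverage of 1000 corresponds to an RPKM (the reads on each 1000 bases of a contig, out of 1000000 reads) of 100.2, 166 and 262 in bands 1, 2 and 3. The median RPKM of the short contigs was 735, 1728 and 1434, over contigs that passed these unequal floors. Their highest RPKM was 100772, 142242 and 124601, so by RPKM the highest of band 3 was above that of band 1, unlike by coverage. The number of contigs at the top of the range was not counted at a scaled cut. With the minimum scaled up to the same RPKM, 154 contigs remained in band 1 and 215 in band 2, against 432 in band 3. The shares of reads were 22.06%, 35.05% and 34.2%. The median RPKM was then 1943, 2066 and 1434, a setting added after seeing the data, so band 3 had the lowest median at an equal floor and band 1 the lowest at the unequal ones. Scaling raised the minimum in bands 1 and 2 only, so it could only widen the lead of band 3 in number of contigs. Reads per library decreased in the order of the gel cuts, so cut and sequencing depth cannot be told apart behind any difference between the bands.

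At the coverage minimum, the lowest short contig inside was TRINITY_DN7204_c0_g1_i1 in band 1 (193 bases, coverage 1014), TRINITY_DN2597_c12_g2_i1 in band 2 (155 bases, coverage 1000.2) and TRINITY_DN3246_c0_g1_i1 in band 3 (169 bases, coverage 1015). The highest just outside were TRINITY_DN10369_c4_g2_i1 (265 bases, coverage 992), TRINITY_DN2555_c0_g1_i14 (156 bases, coverage 997) and TRINITY_DN3416_c19_g1_i2 (281 bases, coverage 997). At the length limit, the longest inside had 297, 299 and 299 bases. The nearest outside were TRINITY_DN10368_c50_g1_i1 with 306 bases at a coverage of 28472, TRINITY_DN2593_c9_g2_i1 with 301 bases at 50630 and TRINITY_DN3407_c7_g1_i4 with 301 bases at 4541. Neither limit fell in a gap: 37, 35 and 89 of the short contigs inside had a coverage under 2000, and 47, 54 and 111 outside had one from 500 to under 1000.

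Within the short contigs, the reads were most concentrated in band 1. The 10 with most reads held 47.0%, 38.6% and 30.0% of the reads on short contigs of high coverage in bands 1, 2 and 3. To reach 50% of those reads took 12 of 206, 17 of 239 and 30 of 432 contigs, and by components 3 of 80, 7 of 72 and 10 of 143. The sets differed in size, so neither these counts nor the shares of the first 10 compare equal fractions of the sets. In band 1 a single component, TRINITY_DN10311_c3, held 37.0% of them, while the highest component held 11.9% in each of bands 2 and 3.

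In band 1 the short contig with most reads was TRINITY_DN10311_c3_g3_i9, with 193 bases, 1937132 reads (1.94% of the library) and a coverage of 997817. It was followed by TRINITY_DN10311_c3_g6_i1, with 177 bases, 1646083 reads and a coverage of 912056. TRINITY_DN10311_c3_g1_i1 (266 bases, 1511632 reads) and TRINITY_DN10311_c3_g2_i1 (161 bases, 1246385 reads) came next. These 4 belonged to the same component and were also the 4 short contigs of highest coverage. The fifth, TRINITY_DN10311_c2_g1_i5 (195 bases, 1012744 reads), came from another component of the same read cluster, the group of reads that Trinity splits into components. That cluster, TRINITY_DN10311, thus held the 5 highest short contigs of band 1.

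In band 2 the leading short contigs were spread over more components. TRINITY_DN2585_c0_g3_i1 (168 bases) had 1437013 reads, 2.39% of the library, at a coverage of 842666. TRINITY_DN2557_c0_g2_i2 (153 bases) had 1149179 reads at 746844, and TRINITY_DN2583_c1_g2_i2 (161 bases) had 944599 reads at 580584. These 3 each came from a different component. TRINITY_DN2597_c12_g4_i1 (287 bases, 888117 reads) and TRINITY_DN2597_c12_g3_i1 (203 bases, 795945 reads) were from 2 genes of another component.

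In band 3 the highest short contig stood well above the next. TRINITY_DN3365_c1_g3_i1 (196 bases) had 933374 reads, 2.44% of the library, at a coverage of 477793. TRINITY_DN3373_c0_g1_i2 (170 bases) followed with 461893 reads at 261961. TRINITY_DN3383_c5_g3_i5 (243 bases) had 422944 reads at 174922, and TRINITY_DN3407_c7_g4_i1 (155 bases) had 401154 reads at 258254. Each of the leading contigs named for bands 1, 2 and 3 was covered over its full length, except TRINITY_DN10311_c2_g1_i5, which was covered over 98.97%.

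**Figure D2:**
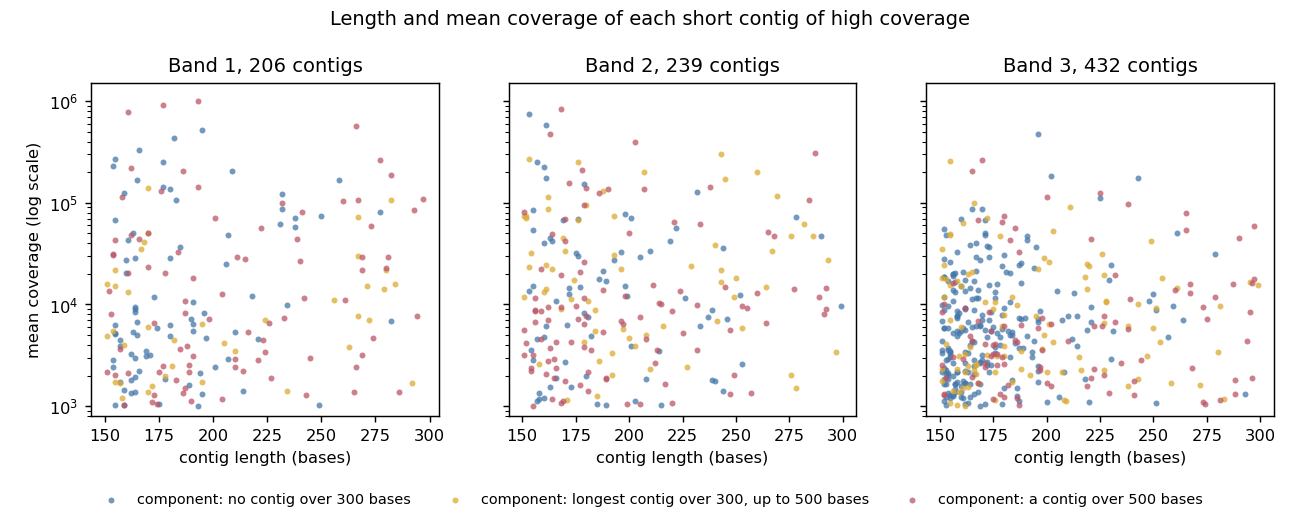
Length (bases) and mean coverage (log axis) of each short contig of high coverage in the 3 bands, 1 point per contig, coloured by the longest contig of its component. The points crowd at the shortest lengths, most of all in band 3, where 9 of 432 reach a coverage of 100000, against 31 of 206 in band 1 and 28 of 239 in band 2. Coverage is not scaled by library size, and band 3 had the fewest reads.

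The short contigs of high coverage lay towards the lower end of the lengths listed, and in band 3 most of all. Their median length was 186.5, 185 and 175 bases in bands 1, 2 and 3, and the shortest contig listed in each table had 151 bases. Contigs of 151 to 175 bases made up 39.3%, 37.2% and 50.9% of them, and contigs of 276 to 300 bases 7.28%, 7.11% and 4.40%. All short contigs, whatever their coverage, had similar medians of 196, 189 and 179 bases. The lengths thus differed little from those of the short contigs as a whole. None of them was within the 50 to 150 bp of the gel cut of band 3, since the tables list nothing under 151 bases.

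Against short contigs of lower coverage with at least 10 reads, the difference in length was larger. Those had median lengths of 245, 230 and 197 bases, and 21.6%, 30.9% and 52.8% of them had at most 200 bases. Of the short contigs of high coverage, 62.1%, 62.3% and 73.8% did. A minimum of reads by itself takes out short contigs of low coverage. Without that minimum, the short contigs of lower coverage had median lengths of 196, 190 and 179 bases in bands 1, 2 and 3. Those of high coverage had 186.5, 185 and 175. The larger difference thus appeared only with the read minimum, whose part was not tested.

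Weighted by reads, the median lengths were 193, 180 and 191 bases, so the bands were not in the order of the gel cuts. In band 3, contigs over 200 bases had a higher median coverage than the shorter ones, 6972 against 4748. The same held in band 1, with 12408 against 6137, whereas in band 2 the values were 10256 and 10776.

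**Figure D3:**
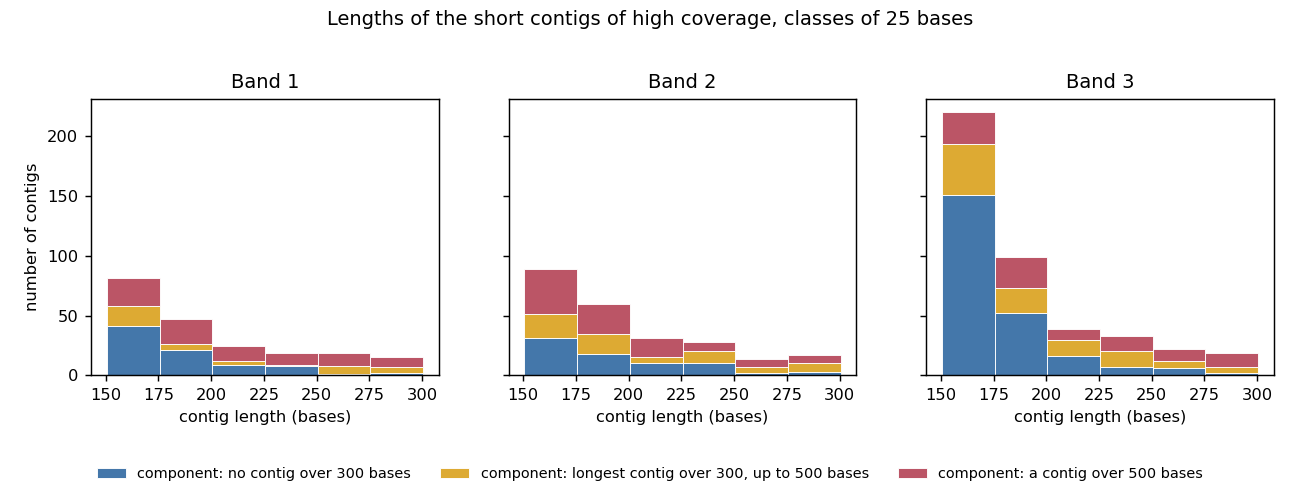
Number of short contigs of high coverage by contig length (bases) in classes from 151 to 175 up to 276 to 300, stacked by the longest contig of their component. The first class holds 81, 89 and 220 contigs in bands 1, 2 and 3, and in band 3 only 27 of those 220 shared a component with a contig over 500 bases.

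The next comparison concerned whether these contigs stood alone in the assembly or were joined to a longer contig. In band 1, 86 of 206 (41.7%) belonged to a component that also held a contig over 500 bases, called a long partner below, and in band 2 it was 101 of 239 (42.3%). In band 3 it was 97 of 432 (22.5%). These shares depend on the limits: with a partner over 1000 bases they were 17.0%, 11.7% and 7.18%, with a partner over 300 bases 60.2%, 69.04% and 45.8%, and with a partner in the same Trinity gene 18.0%, 17.2% and 11.3%. By the limit of 500 bases, the other 120, 138 and 335 contigs belonged to components made of contigs of at most 500 bases, and of these 82, 74 and 234 to components with no contig over 300 bases. Component-wise, 24 of 80, 21 of 72 and 21 of 143 components with a short contig of high coverage held a long one.

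The same split by reads separated the bands further. Short contigs of components without a contig over 500 bases held 9.57%, 20.9% and 24.1% of all reads in bands 1, 2 and 3. Those of components with such a contig held 12.7%, 14.2% and 10.1%. The first kind thus took 43.1%, 59.5% and 70.4% of the reads on short contigs of high coverage in bands 1, 2 and 3. By summed coverage, the first kind held 25.9%, 35.8% and 49.2% of each library. With the limit at 300 bases, the contigs of components that were short throughout held 8.04%, 10.4% and 16.4% of the reads.

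Contigs alone in their component, with no other listed contig in it, numbered 29, 23 and 55 in bands 1, 2 and 3. They were 14.1%, 9.62% and 12.7% of the short contigs of high coverage and held 2.71%, 2.15% and 2.55% of the reads. The highest such component of band 1, TRINITY_DN10311_c5, was a contig of 166 bases with 549437 reads at a coverage of 331655, named after its value was seen. It shared its read cluster with TRINITY_DN10311_c3, a component of 23 contigs of up to 793 bases. Being alone in a component thus does not mean being alone in a read cluster, and how many were alone in both was not counted. Most short contigs of high coverage therefore had companions in the assembly: a median of 11, 16 and 18 contigs were listed in their component.

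The size of the component moved with the presence of a long contig. Short contigs with a long partner were in components of a median 18, 18 and 25 contigs, and those without in components of 7, 10 and 11. Short contigs of lower coverage with at least 10 reads had a long partner in 16.9%, 16.5% and 23.9% of cases, and they lay in components of a median 1, 1 and 8 contigs. Among components of at least 11 contigs the order turned in bands 1 and 2. There 71 of 110 (64.5%), 92 of 152 (60.5%) and 96 of 264 (36.4%) of the short contigs of high coverage had a long partner, against 84.5%, 76.6% and 46.5% of those of lower coverage. In components of 6 to 10 contigs it was 13 of 49, 9 of 38 and 1 of 60, against 71.9%, 35.2% and 19.2%. Within both of these size classes, long partners were thus found at a lower share for the contigs of high coverage. The class of at least 11 contigs has no upper limit, so component sizes within it may still differ between the 2 kinds. Contigs of a component are not independent of each other, so these shares have no test.

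Components with a short contig of high coverage accounted for nearly all reads. Together with all their other contigs they held 94.3%, 97.5% and 98.6% of the reads in bands 1, 2 and 3, on 567, 599 and 1259 contigs. Of the contigs over 500 bases with a coverage of at least 1000, 59 of 98, 38 of 66 and 68 of 72 in bands 1, 2 and 3 shared a component with a short contig of high coverage. In band 3 nearly all such long contigs thus had short companions of high coverage. These long contigs lay in 29, 28 and 15 components in bands 1, 2 and 3, so the share in band 3 rests on few components counted many times.

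Where a short contig had a long partner, their coverages often differed by far. The coverage of each short contig was divided by the highest coverage of a contig over 500 bases in its component. The median ratio was 0.167, 0.435 and 0.845 in bands 1, 2 and 3. Partners below the coverage minimum give ratios above equal coverage by the rule alone, which raises these medians. The ratios came from 24, 21 and 21 components, and contigs of a component share the same divisor, so the cases below are not independent. The short contig was the higher in 21 of 86, 40 of 101 and 47 of 97 cases. It was over 10 times higher in 14, 25 and 22 cases and over 10 times lower in 29, 29 and 14.

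Some long partners were below the coverage minimum. In 14, 22 and 28 cases, from 6, 6 and 9 components, no contig over 500 bases of the component reached a coverage of 1000, and in 6, 5 and 13 of these cases none reached 10. All of these cases count among those where the short contig was the higher, which the coverage minimum fixed in advance. In band 2, TRINITY_DN2578_c0_g1_i1 (163 bases) had a coverage of 474040, while the highest coverage of the 6 contigs over 500 bases in its component was 14.5. In band 3, TRINITY_DN3366_c1_g2_i11 (225 bases) had 124989 against 4.66, and in band 1 TRINITY_DN10266_c1_g2_i3 (240 bases) had 26950 against 9.34. These last 2 contigs were named after their values were seen. Counting only long partners with a coverage of at least 1000, the shares with a long partner were 35.0%, 33.1% and 16.0%, and band 3 was still the lowest.

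**Figure D4:**
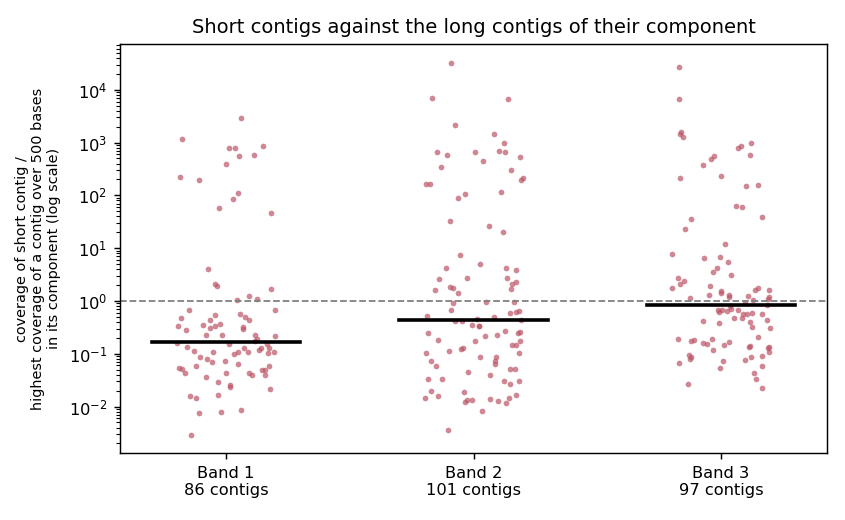
Coverage of each short contig of high coverage divided by the highest coverage of a contig over 500 bases in its component (log axis), for the 86, 101 and 97 contigs with such a partner; bars mark the medians of 0.167, 0.435 and 0.845 and the dashed line equal coverage. The points above the line number 21, 40 and 47 in bands 1, 2 and 3. They include all points whose partner was below the coverage minimum of the short contigs, which lie there by the rule alone. Those points also raise the medians. Points of a component share the same partner value and are not independent.

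Over all components with both a long contig and a short contig of high coverage, the latter held 15.7%, 22.0% and 13.9% of the components' reads. Components with a long contig but no short contig of high coverage are left out of these shares. The components named next were picked for having the most reads on such contigs, which favours high shares. TRINITY_DN10311_c3 in band 1 had 23 contigs, of which 18 were short contigs of high coverage from 152 to 273 bases in 5 genes, with coverages from 1358 to 997817. They held 53.8% of the reads of the component, and its highest contig over 500 bases had a coverage of 466036. In TRINITY_DN10360_c24, also in band 1, the 2 short contigs of high coverage held 4.90% of the reads of the component, at coverages of 217995 and 263497 against 592894 for its highest long contig. In the first component the short contigs thus led, and in the second the long ones.

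In band 2, TRINITY_DN2597_c12 had 10 short contigs of high coverage among 18, with 58.9% of the component's reads, and its contig over 500 bases had a coverage of 78665. TRINITY_DN2585_c0 had 5 among 14 with 91.7%, and TRINITY_DN2578_c0 had 9 among 21 with 99.9%. In band 3, TRINITY_DN3373_c0 had 7 among 21 with 73.1%, TRINITY_DN3370_c0 had 8 among 26 with 92.3%, and TRINITY_DN3406_c24 had 6 among 25 with 10.7%. In TRINITY_DN3406_c24 most reads thus lay on other contigs, and in the other components named for bands 2 and 3 on the short ones of high coverage.

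Among components without a contig over 500 bases, the one with most reads on short contigs of high coverage in band 1 was TRINITY_DN10311_c2. All of its 7 contigs were short contigs of high coverage, from 163 to 207 bases, and they held 2.19% of the reads of the library. TRINITY_DN9808_c0 followed with 7 such contigs of 210 to 250 bases, all isoforms of 1 gene, and 1.13% of the reads. In band 2, TRINITY_DN2557_c0 consisted of 5 contigs of 153 to 198 bases with 2.68% of the reads, and TRINITY_DN2583_c1 had 7 short contigs of high coverage among 10 with 2.31%. TRINITY_DN2593_c8 had 4 among 8, with 40.9% of the reads of a component whose longest contig had 469 bases.

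In band 3 the one with most reads on such contigs was TRINITY_DN3383_c5, with 18 contigs of 152 to 261 bases. Of these, 14 were short contigs of high coverage, which held 4.09% of the reads of the library and 99.8% of those of the component. TRINITY_DN3365_c1 had 4 among 11 with 2.52% of the library, and TRINITY_DN3407_c7 had 18 among 24 with 2.07%. The longest contigs of these 3 components had 261, 214 and 301 bases. Over all components of this kind, short contigs of high coverage held 69.6%, 63.7% and 92.8% of the components' reads.

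Many short contigs of high coverage came as sets of isoforms. They belonged to 113, 135 and 228 Trinity genes in bands 1, 2 and 3, of which 77, 80 and 146 had a single such contig. The other genes held 129 of 206 (62.6%), 159 of 239 (66.5%) and 286 of 432 (66.2%), and the most in a gene was 8, 8 and 12. Components with at least 5 of them numbered 16, 20 and 30 and held 59.2%, 63.6% and 59.7% of them. The number of contigs is therefore no number of distinct RNAs, and contigs of a gene may share sequence and reads. Grouped by gene in place of component, 37, 41 and 49 had a partner over 500 bases, and grouped by read cluster 137, 135 and 147 did.

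Deep coverage did not always extend over the whole contig. Every base was covered in 182 of 206 (88.3%), 196 of 239 (82.0%) and 355 of 432 (82.2%) in bands 1, 2 and 3. Short contigs of lower coverage with at least 10 reads were covered in full in 85.4%, 81.1% and 57.3% of cases. Contigs over 500 bases with a coverage of at least 1000 were in 74.5%, 60.6% and 77.8%. With that read minimum, the shares of both kinds of short contig were thus close in bands 1 and 2. In band 3 they were 82.2% and 57.3%. Over all short contigs of lower coverage, without the read minimum, 88.1%, 92.5% and 73.6% were covered in full. The closeness in band 2 and the size of the difference in band 3 thus depend on the read minimum.

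The uncovered parts were mostly small. Among the 24, 43 and 77 contigs not covered in full, the median number of uncovered bases was 2, 4 and 3, and all uncovered bases together were 0.449%, 0.982% and 1.11% of the bases of the short contigs of high coverage. A covered percent under 90 was found in 3, 5 and 16 contigs. The lowest was that of TRINITY_DN2581_c20_g1_i1 in band 2, where 96 of 215 bases had no read (covered percent 55.3) at a mean coverage of 1025. In band 1 it was TRINITY_DN10360_c26_g1_i1, with 46 of 164 bases uncovered at a coverage of 1368, and in band 3 TRINITY_DN3414_c64_g1_i1, with 69 of 186 bases uncovered at 1518. Reads on such a contig lay on part of it only. These 3 contigs were named after their values were seen.

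Many uncovered bases also occurred at a much higher depth. TRINITY_DN2590_c3_g2_i1 in band 2 (160 bases) had a coverage of 13118 with 44 bases uncovered, and TRINITY_DN3383_c5_g1_i1 in band 3 (167 bases) had 29566 with 41 uncovered, both also named after their values were seen. Among contigs with a coverage of at least 10000, 6 of 93, 13 of 121 and 23 of 135 in bands 1, 2 and 3 were not covered in full. Below that coverage it was 18 of 113, 30 of 118 and 54 of 297. In band 3 the shares, 17.0% and 18.2%, were close, while in bands 1 and 2 they were 6.45% against 15.9% and 10.7% against 25.4%.

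Reads on short contigs were placed over nearly the same length as reads on long ones. The aligned bases per read had medians of 99.97, 99.97 and 99.6 over the short contigs of high coverage, against 100.5, 100.5 and 100.01 over contigs over 500 bases of the same coverage. The spread was wider among the short ones, from 83.0 to 106.9 in band 1, 90.8 to 104.1 in band 2 and 67.3 to 105.05 in band 3. The lowest in band 3 was TRINITY_DN3344_c2_g1_i2 (176 bases, coverage 4117), and the lowest in band 1 TRINITY_DN10311_c4_g1_i1 (180 bases, coverage 4849), both named after their values were seen.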

How the data were processed

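RNA from 3 gel cuts was sequenced as 1 library each. The deposited tables, 1 for each band, list contigs and give, per the file headers, the length, the count of reads, the sum of aligned bases, mean coverage (signal per base, not scaled by library size), RPKM (scaled by the total of reads in the table) and the covered percent. Of the authors' tools, bcl2fastq and Bowtie2 are listed in the submitters' processing notes. Settings of the assembly, filters on reads and the placing of reads with several matches are not stated in those notes. If reads with several matches were divided among contigs, coverages of contigs that share sequence depend on that division.

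Contigs of at most 300 bases with a coverage of at least 1000 were taken in each table. The component is the contig name without its gene and isoform parts, and long contigs are those over 500 bases. No test was made, and read shares have exact 95% intervals. The code for the rule was run on simulated tables with planted short contigs clear of the coverage minimum. That run checked the code only and not the choice of limits. Members and limits were chosen with earlier results of these data known. Component size classes, coverage ratios to long contigs and cuts on covered percent were added after the data were examined. Contigs to be named were fixed by rule: those with most reads or the highest coverage, the leading components with and without a long contig, and the neighbours of the limits; exceptions are marked. Values were computed in Python 3.11.15 with pandas 2.3.3, NumPy 2.4.6 and SciPy 1.17.1, and plots were drawn with Matplotlib 3.10.9.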

Additional observations from a re-analysis of the deposited data

How the results depend on the processing

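No paired analysis was possible because each band has 1 library, and no replicate could be left out. Values are given in the order of bands 1, 2 and 3. The count of contigs stayed within 1.5 times of 206, 239 and 432 under each limit tried, and band 3 was highest in each. With the minimum scaled by library reads that order was fixed in advance, since only bands 1 and 2 could lose contigs. The share of reads (22.2%, 35.1% and 34.2%) was 16.2%, 29.1% and 29.9% with a length limit of 250 bases and 27.7%, 50.5% and 40.6% with 400 bases. It was 22.3%, 35.3% and 34.6% with a minimum coverage of 500, 22.1%, 34.98% and 33.6% with 2000, and 22.06% and 35.05% in bands 1 and 2 with the minimum scaled by library reads. Without the component that had most reads on short contigs, added after seeing the data, it was 16.5%, 33.3% and 31.4%. Bands 2 and 3 changed order only at 250 bases. The share of summed coverage (57.8%, 59.2% and 67.5%) was 46.4%, 52.05% and 61.6% at 250 bases, 65.9%, 73.07% and 74.4% at 400 bases, 57.95%, 59.4% and 68.3% at a coverage of 500, 57.5%, 58.9% and 66.2% at 2000, 57.3% and 59.01% with the scaled minimum, and 49.7%, 58.3% and 64.9% with that component left out. Band 3 was highest in each. The share of contigs with a long partner (41.7%, 42.3% and 22.5%) was 60.2%, 69.04% and 45.8% with a partner over 300 bases, 17.0%, 11.7% and 7.18% over 1000 bases, 18.0%, 17.2% and 11.3% by gene, 66.5%, 56.5% and 34.0% by read cluster (added after seeing the data), and 35.0%, 33.1% and 16.0% for partners with a coverage of at least 1000. Requiring 10 reads on the partner left it as it was. Band 3 was lowest in each of these, while bands 1 and 2 changed order. Contigs under 151 bases are outside all values.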
